A study of Mus musculus with 3 samples.

Results

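The mitosis genes are 35 genes of the G2 and M phases of the cell cycle, given as a list and matched by symbol. All 35 were found among the 55536 Ensembl genes of the deposited tables. They lie on 15 chromosomes, and 8 of them lie on chromosome 2. They were followed in bone marrow-derived macrophages of C57BL/6J mice, primary cells given Lipid A at 100 ng/ml for 10 minutes, from which cytosolic total RNA was sequenced. Lipid A is the lipid anchor of lipopolysaccharide and a ligand of TLR4. The study made 3 libraries of this 1 group, with ribosomal RNA depleted from 1 µg of RNA. All 3 carry the same donor identifier, and sex and age were not recorded. Separate animals or cultures are not stated for the replicates, so tests between them measure the spread of these libraries, which may be technical. The libraries hold no unstimulated cells, so each value is a level after stimulation and not a response to it. Estimated counts totalled 33978273, 54778530 and 43237143 in replicates 1, 2 and 3. At these depths 3 counts on an effective length of 1 kb equal 0.045, 0.0294 and 0.0395 TPM, a length-adjusted share of all transcripts. A count of 0 allows a level up to that limit, which covers counting error only.

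Cells enter mitosis when the kinase CDK1, bound to a cyclin, is switched on by CDC25 phosphatases. Mitotic kinases then build the spindle, the kinetochore ties chromosomes to it, and the anaphase-promoting complex ends the phase by marking cyclin B and securin for destruction. The mRNAs of these proteins accumulate late in the cycle and are low in resting cells, because the DREAM complex holds their promoters silent and the B-MYB and FOXM1 factors activate them. Macrophages grown from marrow with a growth factor divide while they differentiate and largely stop once mature, so mitotic mRNA in such a culture is a common readout of cells that still cycle. In bulk RNA, more cycling cells and more mitotic RNA per cell cannot be told apart.

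Most of the 35 genes were low, and every one of them had its highest TPM in replicate 3. The median over the genes was 0.95, 1.04 and 3.26 TPM in replicates 1, 2 and 3. The median of the genes' mean TPM was 1.72 (SD of the library medians 1.31, n = 3), against 7.13 over the 9944 genes that averaged at least 1 TPM. Only Cdk1, Cenpa, Kif23 and Top2a had means above 7.13. The 35 genes are given without a filter, and 6 of them averaged under 1 TPM. TPM depends on what else is in the total: the median of the genes' means was 6.81 when TPM was rescaled over protein-coding genes, a change that raises other such genes by the same factor, and 0.681 in a second deposited quantification, the second transcript table. Levels spanned 0.353 TPM for Cdc25c to 28.2 TPM for Cenpa as means. At least 1 TPM was reached by 15, 18 and 33 of them, and by 14 in all libraries, a count that was 32 when rescaled and 6 in the second transcript table. Their summed levels were 77.7, 75.4 and 168.3 TPM. Replicates 1 and 2 were close in this sum and replicate 3 was above both. A highest TPM in replicate 3 is common in these tables, since 66.1% of the 9944 genes have it, so the count of 35 of 35 is read with the sizes below.

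**Figure D1:**
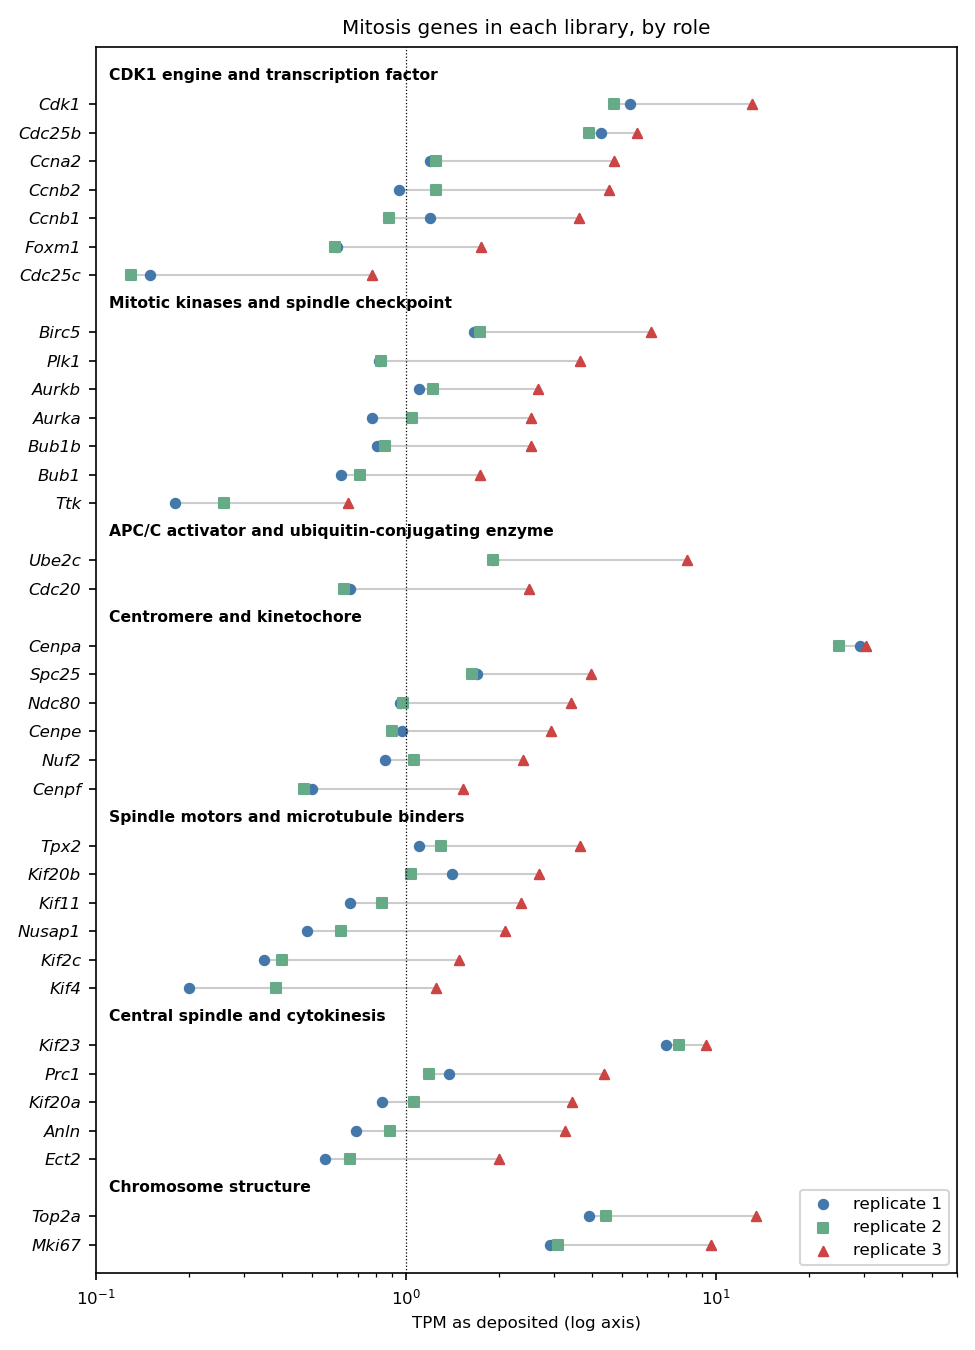
Deposited TPM (log axis) of each of the 35 mitosis genes in replicates 1, 2 and 3, grouped by role and ordered by mean level. The dotted line marks 1 TPM; replicate 3 lies to the right of the other libraries in every row, and the 3 points of Cenpa, Kif23 and Cdc25b lie close together.

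The difference of replicate 3 was large for most of the genes. Of the 35, 32 had a highest TPM at least 2 times the lowest, in replicate 3, with ratios from 2.43 to 6.25. All 35 had a summed count of at least 30, and of the 13494 genes with such a count 4.62% had the same pattern. The other 3 were Cenpa with a ratio of 1.22, Kif23 with 1.35 and Cdc25b with 1.43. Of the 29 that averaged at least 1 TPM, 10 were under it in both replicates 1 and 2 and passed only through replicate 3, so no count over these 29 is set against other genes. The median SD of log2(TPM + 1) over the 35 genes was 0.55, against 0.10 over the 9944 genes. The TPM scale itself moved little, with a median log2 difference over those genes of 0.10 between replicates 3 and 1 and 0.11 between replicates 3 and 2.

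**Figure D2:**
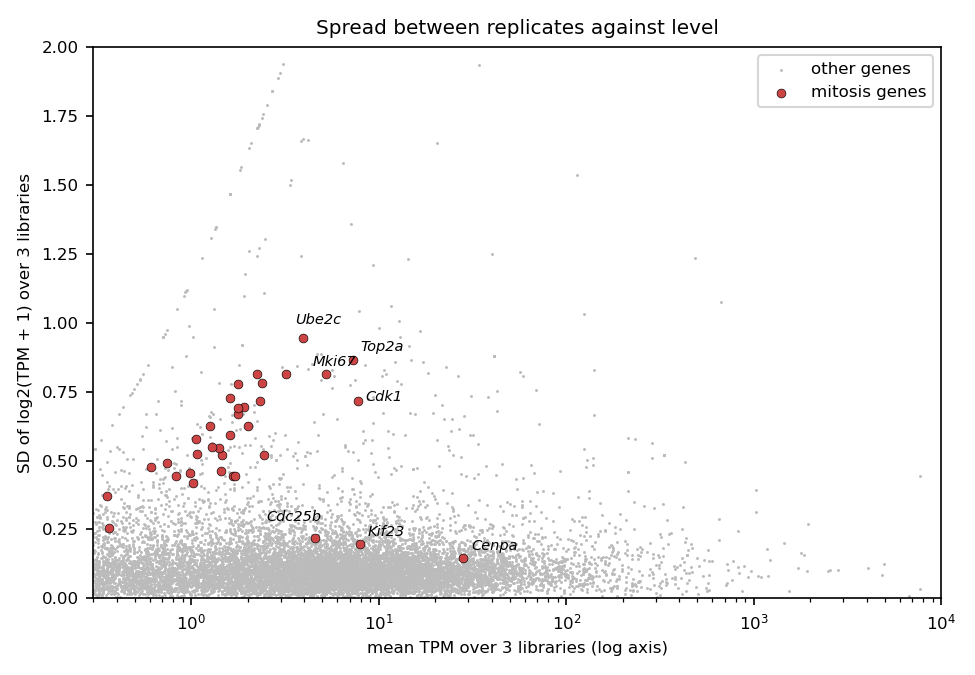
SD of log2(TPM + 1) over the 3 libraries against mean TPM (log axis) for the 35 mitosis genes (red) and all other genes with a mean of at least 0.3 TPM (grey); 23 other genes lie above the SD axis and 5 lie past the TPM axis. Most mitosis genes stand above the bulk of genes of their level, while Cenpa, Kif23 and Cdc25b lie within it.

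A chi-square test of the rounded counts against effective library sizes asked whether each gene differed between libraries beyond counting error. All 35 genes had the summed count of 30 that the test required, and all 35 passed at a Benjamini-Hochberg threshold of 0.05 over all 13494 genes tested, against 50.1% of those genes. The largest adjusted p in this chi-square test was 3.68e-08, for Cenpa. With replicate 3 the highest in CPM (counts scaled by effective library size), 34 of the 35 passed, against 19.8% of all tested genes. Cenpa was the exception, with 61.1 CPM in replicate 1 against 51.2 and 55.7 in replicates 2 and 3. The test says that these libraries differ and says nothing of a condition. Without replicate 3 the pattern ended: 9 of the 35 passed between replicates 1 and 2, against 35.5% of all genes tested there, and none had a TPM ratio of 2 or more.

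The promoters show what the genes share in sequence. The start regions of 29 of the 35 genes are in the RefSeq promoter table of GRCm38.p6, each 250 bases before to 50 after the annotated start. The letters TTTGAA, the core of the cell cycle homology region that the MuvB part of the DREAM complex binds, were on either strand of 22 of the 29 (75.9%). They were in 54.8% of the promoters of 73 other mitosis genes, in 17.3% of those of 52 replication and S phase genes, in 14.3% of those of 7634 genes that averaged at least 1 TPM, and in 20.2% of all 27018 genes in the table. In 20 of the 29 (69.0%) a match lay within 50 bases of the start, a window chosen after the positions were seen. There it was in 45.2% of the other mitosis genes, 9.62% of the replication and S phase genes and 3.51% of those 7634 genes. In the 250 bases before the start alone, 10 of the 29 (34.5%) had TTTGAA, against 35.6% of the other mitosis genes and 12.9% of the 7634 genes. The letters CCAAT, the box bound by the factor NF-Y, were on either strand of 22 of the 29 (75.9%), against 42.9% of the same 7634 genes. They were also in 68.5% of the other mitosis genes and 59.6% of the replication and S phase genes. Both were present in 18 genes. Any of the 8-letter E2F-type words TTTGGCGC, TTTCGCGC, TTTCCCGC or TTTGCCGC was in 1 of the 29 (3.45%), that of Cdk1, against 36.5% of the S phase genes. The share was 12.3% over the other mitosis genes, 4.89% over the 7634 genes and 2.61% over all genes. Matches of different motifs were counted separately whether or not they overlap, and a match is a description and not a binding site.

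The 6 genes shown were picked as those with TTTGAA nearest to the start, so their like positions follow from that choice. In other genes the nearest match lay further away, as in Kif2c, 103 bases before the start, and Bub1b, from position 41. Each sequence runs 5′ to 3′ on the strand of the gene, from 100 bases before to 20 bases after the RefSeq start, and capitals mark TTTGAA and CCAAT on either strand (read as TTCAAA and ATTGG where reversed). The regions are chr1:189688067-189688186 (minus strand) for Cenpf, chr9:61946780-61946899 (minus strand) for Kif23, chr9:70421535-70421654 (minus strand) for Ccnb2, chr7:80294351-80294470 (plus strand) for Prc1, chr19:34922258-34922377 (plus strand) for Kif20b and chr9:83834589-83834708 (plus strand) for Ttk, all of GRCm38.p6.
Cenpf: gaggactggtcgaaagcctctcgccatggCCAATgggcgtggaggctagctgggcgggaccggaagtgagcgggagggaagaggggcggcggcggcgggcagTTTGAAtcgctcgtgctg
Kif23: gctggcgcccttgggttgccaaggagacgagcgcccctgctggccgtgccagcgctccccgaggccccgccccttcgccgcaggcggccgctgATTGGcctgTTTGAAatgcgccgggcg
Ccnb2: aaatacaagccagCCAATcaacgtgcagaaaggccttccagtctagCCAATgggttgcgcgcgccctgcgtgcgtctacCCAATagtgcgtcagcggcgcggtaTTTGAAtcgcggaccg
Prc1: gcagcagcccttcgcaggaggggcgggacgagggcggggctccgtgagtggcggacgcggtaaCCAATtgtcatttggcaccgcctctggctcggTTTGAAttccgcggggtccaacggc
Kif20b: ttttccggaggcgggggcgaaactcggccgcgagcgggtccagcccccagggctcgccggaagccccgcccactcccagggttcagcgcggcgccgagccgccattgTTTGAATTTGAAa
Ttk: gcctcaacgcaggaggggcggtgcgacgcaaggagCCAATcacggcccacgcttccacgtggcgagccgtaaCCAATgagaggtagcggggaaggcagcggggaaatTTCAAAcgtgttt

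Cenpf and Kif23 both have TTTGAA from position 3, counted from 1 at the first transcribed base, Ccnb2 has it from position 5, and Prc1 has it from position -5. Kif20b carries 2 copies in tandem from position 8, with no CCAAT in its whole window, and Ttk has it reversed from position 8. Of 29 distinct matches in the promoters of the genes, counting sites shared by the 2 promoters of Prc1 or of Ect2 1 time each, 22 were on the strand of the gene. The CCAAT boxes of Ccnb2 number 3 and those of Ttk number 2, both sets before the start. The genes without TTTGAA were Ccnb1, Cdc25b, Birc5, Bub1, Cenpe, Nuf2 and Nusap1. The median CPM ratio of replicate 3 to replicate 1 was 3.32 over the 22 genes with TTTGAA, with a range of 0.911 to 5.41, and 3.03 over the 7 without it, with a range of 1.27 to 3.93. For replicate 3 to replicate 2 the order turned, with medians of 2.76 with TTTGAA and 2.93 without it. The ranges overlap, and Cenpa, with the lowest ratio, has the letters.

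**Figure D3:**
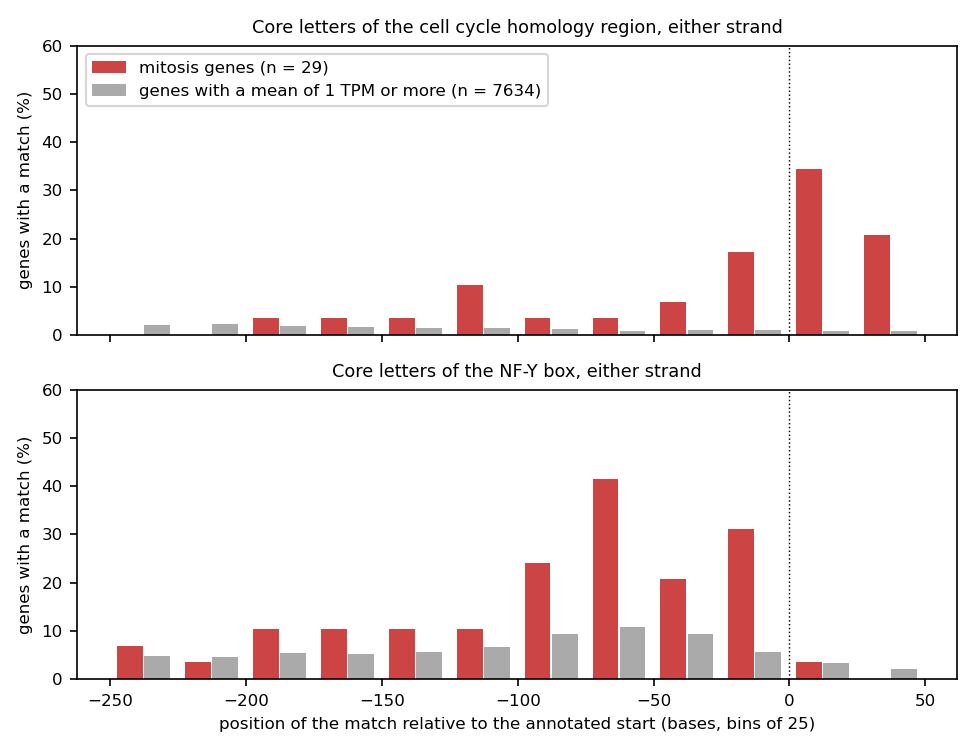
Percent of genes whose promoter holds the core of the cell cycle homology region (top) or of the NF-Y box (bottom) in each bin of 25 bases, by distance from the annotated start (dotted line), for 29 mitosis genes (red) and 7634 genes averaging at least 1 TPM (grey). The top panel peaks just after the start, with 34.5% of the mitosis genes in the first bin, and the bottom panel peaks 50 to 75 bases before it, with 41.4%.

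The CDK1 engine held 7 of the genes. Cdk1 itself, the kinase that drives entry into mitosis (chromosome 10, 69335146 to 69352938 in mm10), had 5.29, 4.70 and 13.1 TPM in replicates 1, 2 and 3. Its deposited TPM interval in replicate 3, 12.1 to 15.3, lay above the upper bounds of 7.20 and 5.96 in replicates 1 and 2. Its cyclin partners were likewise highest in replicate 3. Ccna2, cyclin A2 of S phase and G2, had 1.2, 1.25 and 4.68 TPM. Ccnb1, cyclin B1, had 1.2, 0.88 and 3.63 TPM, and Ccnb2, cyclin B2, had 0.95, 1.25 and 4.52 TPM. In CPM, Ccnb1 was 0.798 times as high in replicate 2 as in replicate 1 (95% counting interval 0.642 to 0.993), while Ccnb2 was 1.37 times as high (1.05 to 1.81). The phosphatases that activate CDK1 differed from each other. Cdc25b, which starts the activation in G2, had 4.26, 3.91 and 5.58 TPM, and its CPM ratio of replicate 3 to replicate 1 was 1.27 (1.15 to 1.39). Cdc25c, which acts at mitotic entry, had 0.15, 0.13 and 0.78 TPM from 17, 23 and 94 counts, with a ratio of 4.53 (2.68 to 8.10). These intervals do not overlap. Foxm1, the transcription factor of many genes in this list, had 0.60, 0.59 and 1.75 TPM.

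The mitotic kinases and the spindle checkpoint gave 7 genes, all of them at least 2 times as high in replicate 3 as in either other library by CPM. Plk1, a kinase of centrosome maturation and mitotic entry, had 0.82, 0.83 and 3.65 TPM. Aurka, the aurora kinase of the centrosome and spindle pole, had 0.78, 1.05 and 2.53 TPM. Aurkb, the aurora kinase of the centromere, had 1.1, 1.22 and 2.67 TPM, and Birc5 (survivin), its partner in the chromosomal passenger complex, had 1.66, 1.74 and 6.18 TPM. For these partners the CPM ratio of replicate 3 to replicate 1 was 2.24 (1.82 to 2.78) for Aurkb and 3.45 (2.70 to 4.44) for Birc5. The checkpoint kinases delay anaphase until all chromosomes are attached. Ttk (MPS1) had 0.18, 0.26 and 0.65 TPM, Bub1 had 0.62, 0.71 and 1.74 TPM, and Bub1b (BUBR1) had 0.81, 0.86 and 2.53 TPM.

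The anaphase-promoting complex was represented by its partners Ube2c and Cdc20. Ube2c, the ubiquitin-conjugating enzyme that works with the complex, had 1.91, 1.91 and 8.06 TPM and the largest SD of log2(TPM + 1) of the 35 genes, 0.95. Cdc20, which activates the complex at anaphase, had 0.66, 0.63 and 2.49 TPM. Replicates 1 and 2 could not be told apart for either gene, since the CPM ratio of replicate 2 to replicate 1 was 1.07 for Ube2c (0.816 to 1.40) and 0.988 for Cdc20 (0.720 to 1.37).

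The 6 centromere and kinetochore genes held the clearest exception. Cenpa, the histone H3 variant that marks the centromere (chromosome 5, 30666777 to 30674830), had 29.12, 24.97 and 30.46 TPM. It was the highest of the 35 genes in each library, and it made up 37.5% of their summed TPM in replicate 1, against 33.1% and 18.1% in replicates 2 and 3. Its CPM ratio of replicate 3 to replicate 1 was 0.911 (0.859 to 0.966), so by CPM it was lower in replicate 3 than in replicate 1, while by TPM it was higher. The outer kinetochore genes did not follow Cenpa. Ndc80, a microtubule-binding subunit of the NDC80 complex, had 0.96, 0.98 and 3.40 TPM. Its partners Nuf2 and Spc25 had 0.86, 1.06 and 2.39 TPM and 1.70, 1.63 and 3.97 TPM. Cenpe, the kinesin that moves chromosomes to the spindle centre, had 0.97, 0.90 and 2.93 TPM. Cenpf, a large protein of the outer kinetochore, had 0.50, 0.47 and 1.53 TPM. Between replicates 2 and 1, Cenpe and Cenpf were lower in replicate 2 by TPM and higher there by CPM, with CPM ratios of 1.18 (1.04 to 1.33) and 1.29 (1.09 to 1.52).

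The spindle motors and microtubule binders were low, and all 6 passed a ratio of 2 by TPM. Kif11, the kinesin that pushes spindle poles apart, had 0.66, 0.84 and 2.36 TPM. Kif4, a chromosome-bound kinesin and the only one of the 35 genes on the X chromosome, had 0.20, 0.38 and 1.25 TPM. It gave the largest TPM ratio, 6.25, and it also differed between replicates 2 and 1, with a CPM ratio of 1.84 (1.38 to 2.49). Kif2c, a kinesin that takes microtubule ends apart, had 0.35, 0.40 and 1.48 TPM. Kif20b, a kinesin of late cytokinesis, had 1.41, 1.04 and 2.70 TPM and the smallest CPM ratio of replicate 3 to replicate 1 in this role, 1.94 (1.70 to 2.21). Tpx2, which activates aurora A on the spindle, had 1.1, 1.30 and 3.64 TPM, and Nusap1, which binds spindle microtubules, had 0.48, 0.62 and 2.09 TPM.

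The central spindle and cytokinesis gave 5 genes, of which Kif23 stood apart. Kif23 (MKLP1), a kinesin of the centralspindlin complex, had 6.90, 7.61 and 9.33 TPM and was the second highest of the 35 genes by mean level. Its deposited TPM intervals overlapped between replicates 3 and 2, at 8.62 to 11.4 and 6.81 to 9.06, but its CPM ratio of replicate 3 to replicate 2 was 1.496 (1.38 to 1.62). Cenpa and Kif23 were the only genes whose deposited interval in replicate 3 did not lie above those of both other libraries, which it did in 33 of 35. Ect2, the exchange factor that switches on RhoA for furrowing, had 0.55, 0.66 and 2.00 TPM. Its deposited intervals began above these values, at 0.735, 0.770 and 2.10, so such an interval does not always hold the TPM given. Anln (anillin), the scaffold of the contractile ring, had 0.69, 0.89 and 3.26 TPM. Prc1, which bundles the microtubules of the central spindle, had 1.38, 1.19 and 4.37 TPM, and Kif20a, a kinesin of the same structure, had 0.84, 1.06 and 3.44 TPM.

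The chromosome structure genes are the usual proliferation markers. Top2a, the topoisomerase that untangles sister chromatids (chromosome 11, 98992943 to 99024189), had 3.89, 4.43 and 13.5 TPM from 881, 1545 and 3487 counts. Mki67, which codes for the Ki-67 antigen at the surface of mitotic chromosomes (chromosome 7, 135689784 to 135716361), had 2.91, 3.09 and 9.62 TPM from 1900, 3055 and 6798 counts. Both were over 2 times as high in replicate 3 as in either other library, and their deposited intervals in replicate 3 were clear of the rest. At this depth a small difference between replicates 2 and 1 was also seen, with CPM ratios of 1.17 for Top2a (1.07 to 1.27) and 1.07 for Mki67 (1.01 to 1.13).

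Across the 35 genes the CPM ratio of replicate 3 to replicate 1 had a median of 3.24, with a range of 0.911 to 5.41, and that of replicate 3 to replicate 2 had a median of 2.78, with a range of 1.09 to 5.03. The ratio of replicate 2 to replicate 1 had a median of 1.07 and a range of 0.798 to 1.84. Over the 9944 genes averaging at least 1 TPM the medians were 1.03, 0.999 and 1.04. The 95% counting interval lay above 1 in 34 genes between replicates 3 and 1 and in all 35 between replicates 3 and 2. Between replicates 2 and 1 it held 1 in 23 genes, lay above 1 in 10 and below 1 in 2, which were Ccnb1 and Cenpa. By role, the median ratio of replicate 3 to replicate 1 ran from 2.72 over the kinetochore genes to 3.82 over the pair around the anaphase-promoting complex. The genes did not all share 1 ratio. The interval lay below the median of 3.24 in 11 genes, among them Cdk1, Aurkb, Spc25 and Mki67, and above it in 5, which were Ccnb2, Plk1, Cenpf, Kif4 and Anln.

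**Figure D4:**
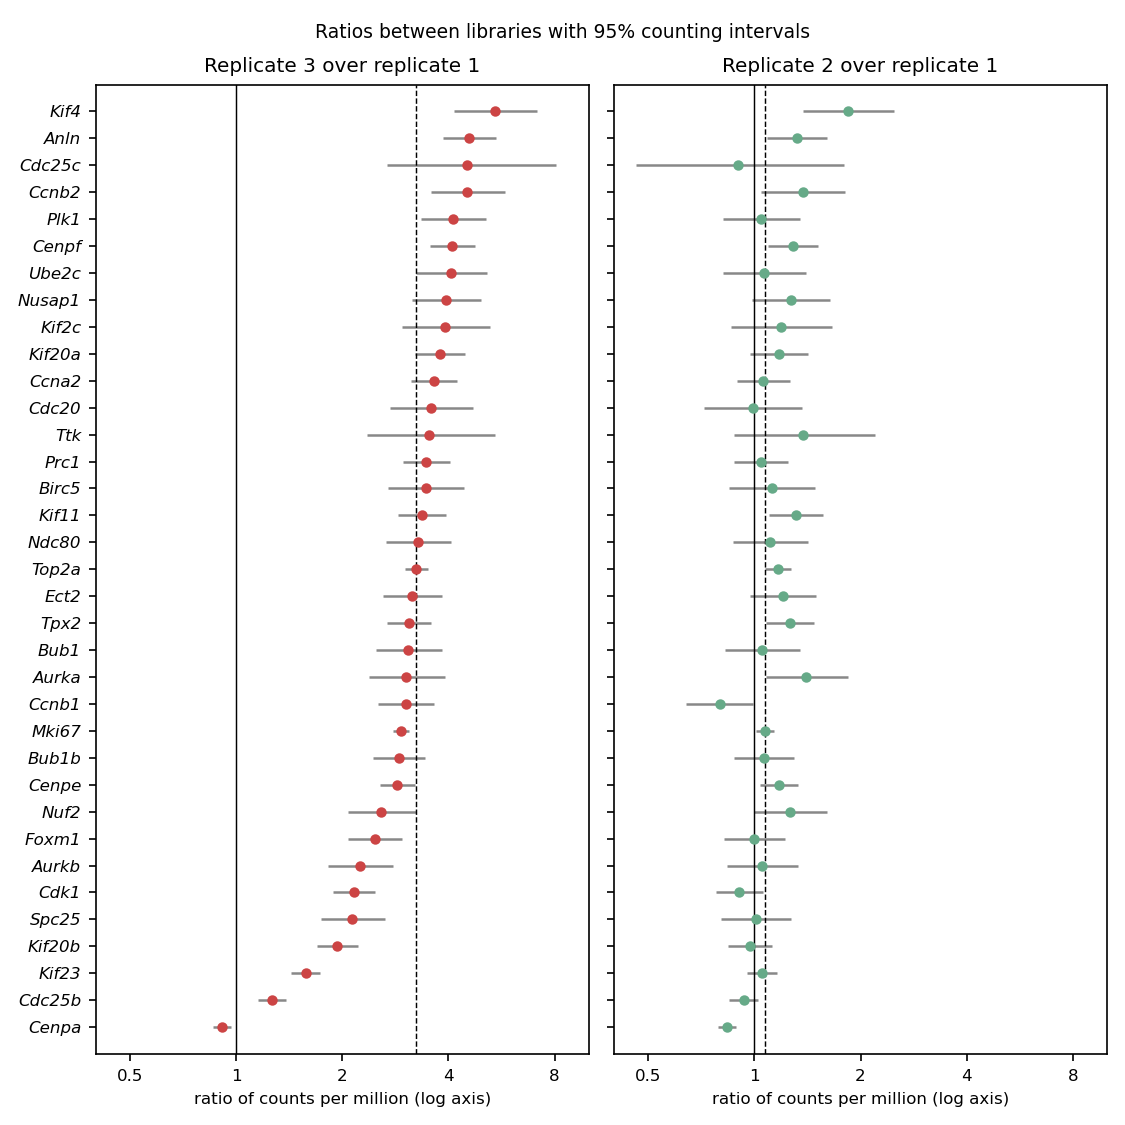
CPM ratio (log axis) of replicate 3 to replicate 1 (left) and of replicate 2 to replicate 1 (right) for the 35 mitosis genes, with 95% intervals for counting error only; solid lines mark 1 and dashed lines the medians, 3.24 and 1.07. The genes are ordered by the left ratio, in which Cenpa alone is below 1.

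Transcripts of the genes were mostly coding. By TPM of the first set of transcript values, 34 of the 35 genes were led by a transcript of the protein_coding class. Such transcripts carried a median of 96.7% of the TPM of a gene. TPM is adjusted for length, so short transcripts take a larger share of TPM than of counts. Cenpa was the exception again. Its leading transcript by TPM, Cenpa-202 of the nonsense-mediated decay class, had 14.3, 13.8 and 16.1 TPM in replicates 1, 2 and 3. The coding share of its TPM was 39.3% ± 1.34 (SD, n = 3). The coding transcript Cenpa-205 had 11.4, 9.52 and 12.4 TPM. By counts the longer Cenpa-205 led in every library, with 919, 1213 and 1166 against 743, 1146 and 979 for Cenpa-202. In Kif23 the coding share was 49.98% ± 8.54 (SD, n = 3), and Kif23-212, a noncoding transcript of 392 bases, had 2.78, 2.42 and 2.98 TPM, while the coding Kif23-201 had 2.55, 2.49 and 4.46 TPM. Kif23-212 thus differed little between libraries, and Kif23-201 was highest in replicate 3. By counts Kif23-212 had 26.8, 43.7 and 37.7, against 535, 807 and 1072 for Kif23-201. Another noncoding transcript, Kif23-208 of the retained intron class, varied more, with 0.35, 1.46 and 0.30 TPM. In Cdk1 a retained intron transcript of 475 bases, Cdk1-204, had 1.85, 1.59 and 5.02 TPM. Retained intron transcripts took 35.9% ± 2.53 (SD, n = 3) of the TPM of Cdk1. By counts Cdk1-204 had 27.8, 42.0 and 94.4 of the 298, 406 and 784 counts of the gene. With coding transcripts alone, the level was highest in replicate 3 in 35 of 35 genes. Another gene with counts overlaps 7 of the genes on the opposite strand (Ccna2, Cdc25b, Cdc20, Kif4, Nusap1, Kif20a and Prc1), and whether counting used strand is not given in the sources used here, so reads of both partners there cannot be told apart.

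Other cell cycle lists were described in the same way, against 50.1% of all tested genes that differed and 19.8% that differed with replicate 3 the highest. Of 89 other mitosis genes, 83 differed between libraries and 81 of these had their highest CPM in replicate 3, with median ratios of 2.22 to replicate 1 and 2.15 to replicate 2. Pimreg, a mitotic regulator, had 0.36, 0.69 and 2.17 TPM, while Ncapg2, a condensin II subunit and the highest gene of that list, had 22.5, 18.1 and 17.9 TPM. Of 69 replication and S phase genes, 58 differed and all 58 were highest in replicate 3, with a median ratio to replicate 1 of 1.54. Pcna, the sliding clamp of DNA polymerase, had 54.2, 64.9 and 86.5 TPM. Of 31 replication-dependent histone genes, 30 differed, all 30 highest in replicate 3, with a median ratio of 2.41. The 35 mitosis genes thus had the highest median ratio of these lists, but their ranges overlap and the difference was not tested. Members and lists were chosen with earlier results of these data known, so this order may partly follow from the choice.

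Other lists of regulators had median ratios nearer to 1. Of 23 DREAM, MuvB and E2F factors, 15 differed and 14 of these were highest in replicate 3, with a median ratio to replicate 1 of 1.18. Mybl2, which codes for B-MYB, had 0.20, 0.20 and 0.41 TPM, and E2f8, a repressor of the E2F family, had 0.57, 0.52 and 1.41 TPM. Of 22 subunits of the anaphase-promoting complex and mitotic exit phosphatases, 14 differed, 9 of them highest in replicate 3, with a median ratio of 1.05. Those 9 of 22 are a larger share than the 19.8% over all tested genes. Of 12 cohesin genes, 7 differed and 6 of these were highest in replicate 3, with a median ratio of 1.03. Those 7 of 12 are near the 50.1% over all tested genes, while the 6 of 12 are a larger share than the 19.8%. Of 20 G1 cyclins, CDKs and CDK inhibitors, 14 differed and 5 of these were highest in replicate 3, with a median ratio of 0.974. Those 5 of 20 are near the 19.8% over all tested genes, while the 14 of 20 are a larger share than the 50.1%. Ccnd1, cyclin D1, had 7.47, 9.46 and 16.7 TPM, and Cdkn1a, which codes for the CDK inhibitor p21, had 57.7, 55.5 and 51.3 TPM.

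**Figure D5:**
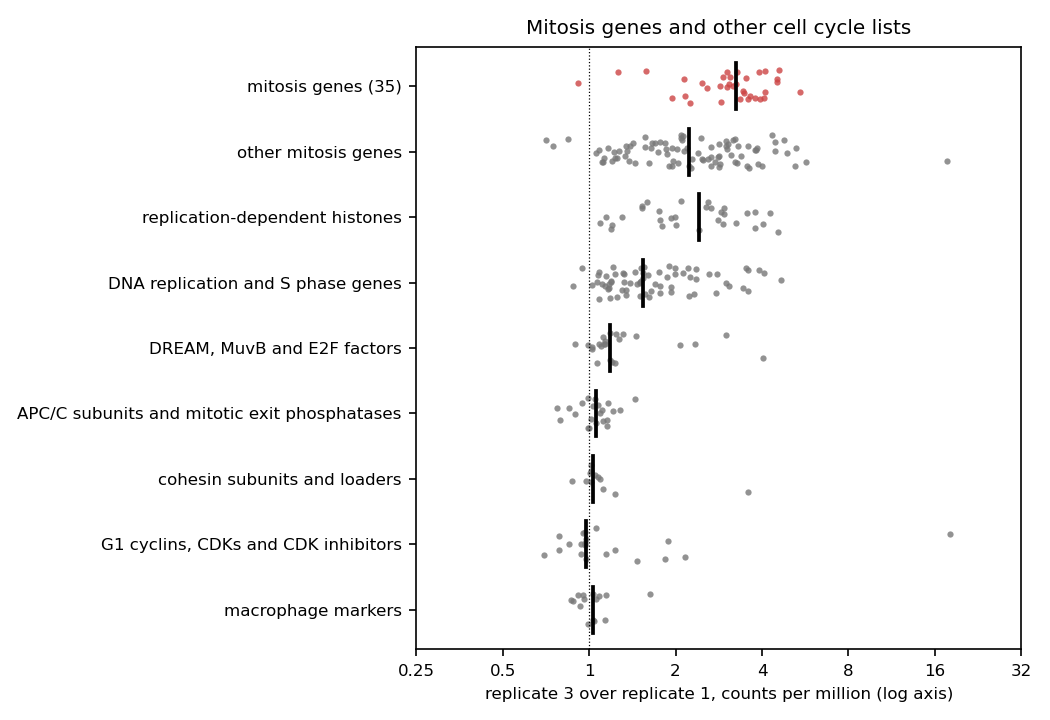
CPM ratio of replicate 3 to replicate 1 (log axis) for the 35 mitosis genes (red), 7 other cell cycle lists and macrophage markers (grey), 1 point per tested gene, with the median as a bar. The medians of the mitosis genes, histones and other mitosis genes are 3.24, 2.41 and 2.22, and that of the macrophage markers is 1.03.

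A highest TPM in replicate 3 at least 2 times the lowest was found in 624 of the 13494 genes with a summed count of at least 30. The mitosis genes supplied 32 of them, which is 5.13% of the 624 genes and 91.4% of the 35. Other mitosis genes supplied 63 (70.8% of that list), histones 21 (67.7%) and replication genes 24 (34.8%), so that 140 of the 624 (22.4%) came from these 4 lists and 484 from none of them.

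Macrophage markers were high in every library, and a few other marker lists differed between libraries. All 15 macrophage markers averaged at least 1 TPM, with summed levels of 10173, 8907 and 9896 TPM in replicates 1, 2 and 3. Markers of granulocyte and monocyte progenitors, which divide, summed to 5.21, 7.17 and 5.14 TPM, led by Ly6c2 at 3.44, 4.08 and 2.23 TPM. Of 8 such markers tested, 5 differed, 3 with the highest CPM in replicate 2 and 2 in replicate 3. The 2 highest in replicate 3 were Sox4, at 0.25, 0.63 and 0.79 TPM, and Mpo, at 0.11, 0.20 and 0.33 TPM. The 3 highest in replicate 2 were Ly6c2, Elane, at 0.06, 0.28 and 0.23 TPM, and Flt3, at 0.09, 0.22 and 0.15 TPM. Over the 8 markers the median CPM ratio was 1.40 of replicate 3 to replicate 1 and 0.679 of replicate 3 to replicate 2. Erythroid markers summed to 1.98, 1.91 and 2.24 TPM, with all 4 globin genes at 0 in every library. Neutrophil markers summed to 30.4, 43.6 and 43.7 TPM, T and NK cell markers to 19.2, 28.2 and 24.99 TPM (nearly all Cd4), B cell markers to 6.89, 5.52 and 6.61 TPM, dendritic cell markers to 2.67, 3.31 and 3.03 TPM, stromal markers to 3.53, 3.68 and 3.51 TPM and mast cell markers to 0.20, 0.25 and 0.12 TPM. Of 7 osteoclast markers 4 were tested, and all 4 differed with the highest CPM in replicate 3, against 19.8% of all tested genes. Their median ratio to replicate 1 was 1.69, against 3.24 for the mitosis genes. The list summed to 51.2, 50.9 and 79.5 TPM, nearly all of it Atp6v0d2 at 49.2, 48.9 and 75.5 TPM, and Calcr was at 0. Long noncoding RNAs of the nucleus summed to 908.5, 464.4 and 384.9 TPM. All 5 of those tested differed with the highest CPM in replicate 1, against 15.8% of all tested genes. Their median CPM ratio was 0.204 of replicate 2 to replicate 1 and 0.802 of replicate 3 to replicate 2. Among these RNAs replicate 1 stood apart. The part of any of these in the difference of the mitosis genes was not tested. The labels name no batch.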

How the data were processed

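Total RNA of the cytosolic fraction was measured in 3 libraries of 1 group. Each came with 1 gene table and 2 transcript tables. Expected counts and TPM of genes and of the first set of transcripts come from transcriptome alignments (mm10, M21) made by the authors, as the deposited text files say, with columns laid out as RSEM writes them. The second set of transcripts has estimated counts and TPM computed by the authors straight from reads, in the layout of kallisto. Aligner, quantifiers, versions and strandedness: not given in the sources used here. Deposited TPM scales each library to a fixed total, so the level of a gene also depends on the other RNAs in the total.

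From these, expected counts were rounded and each gene with a summed count of 30 or more was tested by chi-square over the libraries against TMM effective library sizes of Ensembl genes (edgeR 4.0.16), with Benjamini-Hochberg adjustment over all tested genes. The test compares these libraries, and its p-values measure a spread that may be technical. CPM ratios carry exact Clopper-Pearson 95% intervals, which cover counting error only. The common coefficient of variation between libraries was 14.5% in an intercept-only edgeR model. SDs were taken on log2(TPM + 1), which understates differences of low genes. Entries that are not Ensembl genes held 0.449%, 0.203% and 0.141% of counts and were left out. Symbols and coordinates come from annotation M21, and promoters from RefSeq. The members and lists were chosen with earlier results of these data known. All 35 members are named, and promoters are printed for the 6 with TTTGAA nearest to the start, without chromosome 18. From each pathway list the rule allowed the 3 highest genes and the 3 with the largest ratio. From each list of cell type markers it allowed the 2 highest. The listed symbol Fam64a matched no gene symbol. Sox4, Mpo, Elane, Flt3, Calcr and the globins at 0 were named after their values were seen. Not every gene allowed by this rule is given here. The statistics were tested on simulated data. Alternatives varied the filter, scaling, quantification, pseudocount, motif window and libraries used, with DESeq2 1.42.0 for size factors. Software was R 4.3.3 and Python 3.11.15 with pandas 2.3.3, scipy 1.17.1, numpy 2.4.6 and matplotlib 3.10.9.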

Additional observations from a re-analysis of the deposited data

How the results depend on the processing

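The count of 35 genes that differed between libraries held with no filter, a summed count of 100, DESeq2 size factors, total counts, the deposited posterior SD and the second transcript table, while the share of all genes called ran from 31.7% to 58.9%. Leaving out 1 library at a time gave 9 to 35 genes differing and a median SD of log2(TPM + 1) of 0.07 to 0.70. It gave 14 to 18 genes that reached 1 TPM in all libraries and a median of mean TPM of 0.96 to 2.08. Among genes averaging at least 1 TPM in the libraries kept, a ratio of 2 or more was found in 0 of 16 to 28 of 31 (26 of 29 with all libraries). Some genes pass that filter only through replicate 3, so these counts are not set against other genes. All these lowest values came without replicate 3. Of the 9 genes that differed without replicate 3, 8 were higher in replicate 2 (Kif11, Top2a, Cenpf, Tpx2, Aurka, Kif4, Anln and Cenpe) and Cenpa was higher in replicate 1. The count highest in replicate 3 was 34 by CPM and 34 by TPM over protein-coding genes, each without Cenpa. By the TPM of the second transcript table, whose median gene fell by 0.83 on the log2 scale in replicate 3 against replicate 1, 27 genes were highest in replicate 3, the median SD was 0.276 and 6 genes reached 1 TPM in all libraries. All 10 genes averaging at least 1 TPM in that table had a ratio of 2 or more, a count not set against other genes. Among them Cenpa, Kif23, Cdc25b and Cdk1 were highest in replicate 1, as Cenpa at 21.4, 9.45 and 9.65 TPM. Rescaled over protein-coding genes, an alternative added after the data were seen, that table gave 34 highest in replicate 3, 34 that reached 1 TPM in all libraries and a median of 6.53 TPM. The first table rescaled likewise gave 32 and 6.81 TPM. A pseudocount of 0.1 gave a median SD of 0.919. Before the start only, 10 of 29 promoters held TTTGAA. By CPM the ratio of Kif20b was 1.99 in the first table and 2.09 in the second, against 2.60 by TPM, and the highest library of Cenpa was replicate 1 in both. In the other 33 genes neither the side of 2 nor the highest library changed by CPM. Ratios of Cenpa were 1.19 and 1.16 by CPM in the first and second table, of Cenpe 2.87 and 3.04, and of Cenpf 4.11 and 4.27. The cause of these shifts was not tested. Genes near 0.1 TPM, such as Cdc25c with 17 counts in replicate 1, carry wide counting intervals. No paired analysis was possible because the series has 1 group.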

Other observations

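The quantifications agreed closely on the counts of the mitosis genes. The ratio of the second table's summed counts to the first table's had a median of 1.08, with 1.04 for Plk1 as the lowest and 1.41 for Cdc25c as the highest, and all 35 genes lay within 1.5 times. They differed on transcripts of Cdc25c, whose coding share averaged 90.4% in the first table and 41.6% in the second.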
